A study of Mus musculus with 4 samples.

Results

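The 35 genes described here encode the folding machinery of the endoplasmic reticulum (ER) and the unfolded protein response that controls it, and were followed in mouse hearts 1 week after TAC (transverse aortic constriction, an operation that narrows the aorta so that the left ventricle pumps against raised pressure). The members form a list of named genes: sensors, transcription factors, chaperones, disulfide isomerases, J-domain proteins, prolyl isomerases and parts of the degradation route. Each was read from the probe set that names it alone in the array annotation, or from the probe set of highest mean where there were several. All 35 were measured, out of 19938 genes on the array, and all 35 were among the 16708 genes bright enough to be tested.

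The arrays fall into a group of 3 hearts labelled MAFbx KO, here called knockout 1, 2 and 3, and 1 wildtype heart, all taken after the same surgery. MAFbx (atrogin-1, encoded by Fbxo32) is the substrate-binding F-box protein of a muscle ubiquitin ligase. The comparison asks what its absence does to gene expression in the loaded heart. The sources used here do not give strain, age, sex or the design of the deleted allele, and hearts without TAC were not analysed here. The labels do not say outright that each array is a separate animal. The p-values thus measure only the spread between these samples, which may be technical in part. Sex-linked genes, given below, set knockout 3 apart from knockouts 1 and 2.

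Proteins that enter the secretory pathway fold in the lumen of the ER with the help of chaperones, which hold them, and of disulfide isomerases, which form and rearrange their disulfide bonds. When unfolded protein builds up there, the membrane sensors IRE1 (Ern1), PERK (Eif2ak3) and ATF6 start a response in which XBP1 and cleaved ATF6 raise chaperone and degradation genes, while PERK slows translation and favours ATF4 and CHOP. In heart muscle this response is known to accompany pressure overload, and the fibroblasts and macrophages of the loaded heart, which secrete heavily, depend on the same machinery.

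The sequence through which XBP1 and ATF6 act on many of these genes, the ER stress element, reads CCAAT, then 9 bases of any kind, then CCACG. The choice of members did not read promoters, but the list names genes of the response that XBP1 and ATF6 drive. A high share of the element among them is thus no independent result. RefSeq promoters (GRCm38.p6, 250 bases before to 50 bases after a gene's start) were matched by symbol for 31 of the 35 members. Searched on both strands, the element was found in 9 of those 31 (29.0%), against 37 of the 27025 genes with a promoter in that table (0.137%). The matches are given below as they read on their own strand, with the 10 fixed bases in capitals.
Hspa5, 65 to 47 bases before the start: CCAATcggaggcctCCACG
Hsp90b1, 212 to 194 bases before the start: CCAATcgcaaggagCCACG
Hsp90b1, 107 to 89 bases before the start: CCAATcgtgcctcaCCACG
Calr, 162 to 144 bases before the start: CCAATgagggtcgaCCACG
Canx, 145 to 127 bases before the start: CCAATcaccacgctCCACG
Pdia6, 98 to 80 bases before the start: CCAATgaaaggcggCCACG
Dnajc3, 105 to 87 bases before the start: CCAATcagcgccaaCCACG
Creld2, 126 to 108 bases before the start: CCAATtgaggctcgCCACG
Syvn1, 44 to 26 bases before the start: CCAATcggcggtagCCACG
Derl3, 156 to 138 bases before the start: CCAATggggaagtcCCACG
Hsp90b1 held a pair of matches and each of the others 1. Syvn1 and Derl3 belong to the degradation route, and the other 7 are chaperones, an isomerase, a J-domain protein and Creld2.

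Whole promoters of 5 members are shown because the results below turn on these genes: Hspa5 as the best known target, Pdia6, Sdf2l1 and Pdia4 among the members with the smallest p, and Herpud1 as the member with the highest log2 fold change. In the order printed they lie at chr2:34771840-34772139 (+ strand), chr12:17266339-17266638 (+ strand), chr16:17132334-17132633 (- strand), chr6:47813463-47813762 (- strand) and chr8:94386179-94386478 (+ strand) of GRCm38.p6. Capitals mark every match to the ER stress element or to 3 shorter elements described next.
Hspa5: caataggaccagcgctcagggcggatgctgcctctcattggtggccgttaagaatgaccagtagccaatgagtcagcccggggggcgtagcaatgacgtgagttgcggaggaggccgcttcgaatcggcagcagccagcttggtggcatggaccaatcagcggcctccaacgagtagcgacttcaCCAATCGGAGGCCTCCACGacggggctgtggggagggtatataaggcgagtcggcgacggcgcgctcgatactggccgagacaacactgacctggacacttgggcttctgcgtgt
Pdia6: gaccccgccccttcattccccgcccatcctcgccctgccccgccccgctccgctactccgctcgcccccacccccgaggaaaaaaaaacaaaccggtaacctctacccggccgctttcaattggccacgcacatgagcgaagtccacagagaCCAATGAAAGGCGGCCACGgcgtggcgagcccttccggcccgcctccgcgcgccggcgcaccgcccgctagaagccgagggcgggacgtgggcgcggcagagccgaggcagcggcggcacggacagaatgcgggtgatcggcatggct
Sdf2l1: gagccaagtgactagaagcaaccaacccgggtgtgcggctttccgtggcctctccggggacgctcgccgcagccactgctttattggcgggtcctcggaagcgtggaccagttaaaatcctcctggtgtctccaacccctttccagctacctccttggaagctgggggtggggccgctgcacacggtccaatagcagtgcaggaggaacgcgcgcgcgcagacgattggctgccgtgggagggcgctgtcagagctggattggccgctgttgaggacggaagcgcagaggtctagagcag
Pdia4: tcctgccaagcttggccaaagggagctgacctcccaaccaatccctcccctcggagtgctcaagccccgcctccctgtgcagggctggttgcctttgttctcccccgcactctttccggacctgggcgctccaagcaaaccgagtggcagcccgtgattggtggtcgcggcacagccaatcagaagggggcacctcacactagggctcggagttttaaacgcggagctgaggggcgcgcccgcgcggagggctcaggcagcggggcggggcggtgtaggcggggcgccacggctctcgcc
Herpud1: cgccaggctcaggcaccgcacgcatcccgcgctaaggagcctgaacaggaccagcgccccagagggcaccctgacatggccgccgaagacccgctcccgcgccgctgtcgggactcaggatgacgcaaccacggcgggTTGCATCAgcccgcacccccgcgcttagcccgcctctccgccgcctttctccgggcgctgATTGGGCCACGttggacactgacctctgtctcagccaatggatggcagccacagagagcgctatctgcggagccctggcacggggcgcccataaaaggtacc
Hspa5 and Pdia6 carry the full element, at 65 to 47 and 98 to 80 bases before the start. The promoters of Sdf2l1 and Pdia4 hold no exact match, which says only that these letters are not in this window. Herpud1 carries a different pair, the second ER stress element 52 to 42 bases before the start and the ATF4 element TGATGCAA on the opposite strand 112 to 105 bases before it.

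The second ER stress element (ATTGG, 1 base of any kind, CCACG, both strands) occurred in Herpud1 and Dnajb11, 2 of 31 members (6.45%), against 0.0444% of all genes. TGACGTGG, the XBP1 and ATF6 element, occurred in 1 of the promoters of Txndc5 (3.23% of members, 0.714% of all genes). TGATGNAA, bound by ATF4, occurred in Herpud1, Trib3 and Txndc5 (9.68% of members, 4.51% of all genes). None of these 4 motifs overlapped another in a member's promoter. A match is a description of letters, not evidence of binding.

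**Figure D1:**
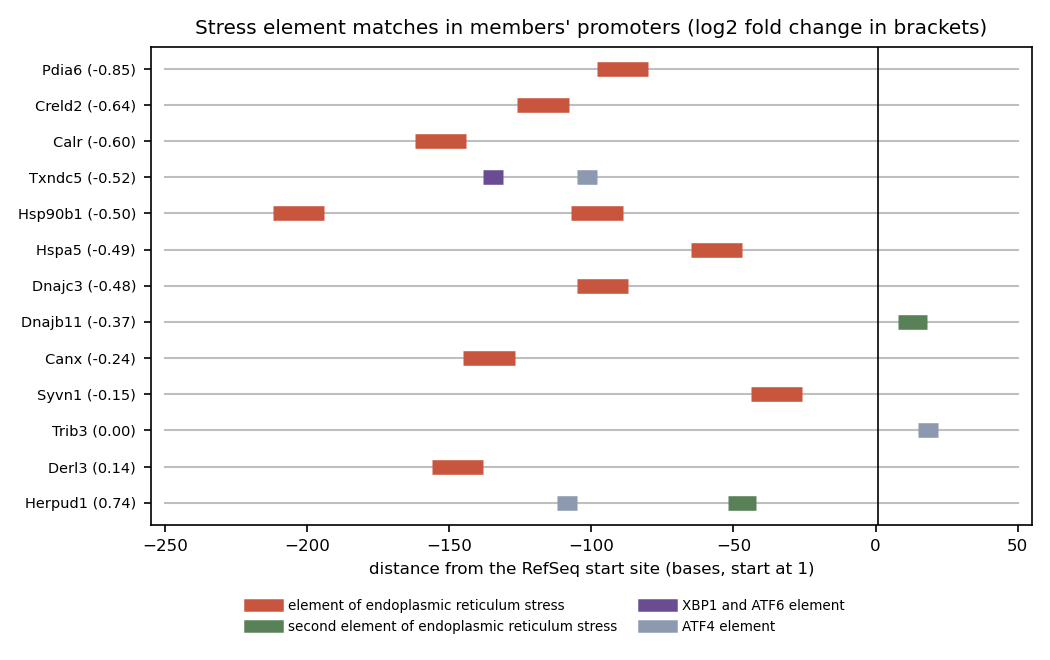
Position of each motif match in the promoters of the 13 members that held one, in bases from the RefSeq start site; genes run from the lowest to the highest log2 fold change (knockout minus wild type, in brackets), Txndc5 shows matches of different promoters on 1 line, and bars are drawn to their length. Matches to the ER stress element lie between 212 and 26 bases before the start, and Herpud1, at 0.74, is at the bottom with the second element and the ATF4 element.

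The 4 arrays separated by more than genotype. Fbxo32 read 5.65, 5.61 and 5.56 (log2) on the knockout arrays and 7.54 on the wild type array, a log2 fold change of -1.93 with SE 0.17 (limma adjusted p = 0.0573). Xist, transcribed from the inactive X chromosome, read 9.18, 9.52 and 3.20 in knockouts 1, 2 and 3 and 4.13 in wild type, and the Y-linked gene Eif2s3y read 3.31, 3.64 and 8.49 against 8.57. Wild type 1 thus shares its sex-linked pattern with knockout 3 alone, and values for knockout 3 are given beside the whole comparison. The same pairing was seen over all genes tested. Knockout 3 correlated (Pearson r) at 0.986 with wild type, 0.978 with knockout 1 and 0.982 with knockout 2, and knockouts 1 and 2 correlated at 0.988. Median levels of the arrays lay between 6.57 and 6.62 (log2) over the genes tested. Every value below is on the log2 scale of the deposited table, and every fold change is knockout minus wild type.

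Transcripts of all 18 chaperone, disulfide isomerase, J-domain and small stress protein genes read lower on every knockout array than in the wild type heart. These 18 were grouped after their values were seen. Among the other members, 1 of 2 prolyl isomerase genes read below wild type on every knockout array. The same was so of 1 of 3 sensor genes, 1 of 4 transcription factor and effector genes and 1 of 8 genes of the degradation route. Of the 35 members, 22 (62.9%) read below wild type on all 3 knockout arrays, where 24.2% of all 16708 genes did so. Another 4 read above it on all 3, for which the share over all genes was also 24.2%, and 9 did neither. The median log2 fold change of the members was -0.38, with a range from -1.14 to 0.74, against 0.00 over all genes tested. By array, the median difference from wild type was -0.54 in knockout 1, -0.28 in knockout 2 and -0.32 in knockout 3.

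No member passed the limma test after Benjamini-Hochberg adjustment over all genes, 0 of 35, where 0.00599% of all genes did (1 gene, Hmox1, lower in knockout). The smallest adjusted p of a member was 0.311, that of Manf. In simulated data of the same design that threshold recovered 0.9% of 2-fold changes. The 0 of 35 therefore does not show that the members are unchanged. Before adjustment, 14 members (40.0%) were lower in knockout at a limma p under 0.05 and 0 were higher, whereas over all genes 3.87% were lower and 1.72% higher at that level. With 1 wild type array the spread comes from the knockout arrays alone, and members that move together are not independent of each other, so these counts describe the 4 arrays. Without knockout 1 the 14 became 9, and without knockout 2 they became 8. With the level of Xist, high or low, as a covariate they became 7. That fit takes its difference from knockout 3 and wild type alone, and its spread from knockouts 1 and 2. Over all genes the share lower at that level was then 2.32%, 2.06% and 2.50%, in the same order.

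**Figure D2:**
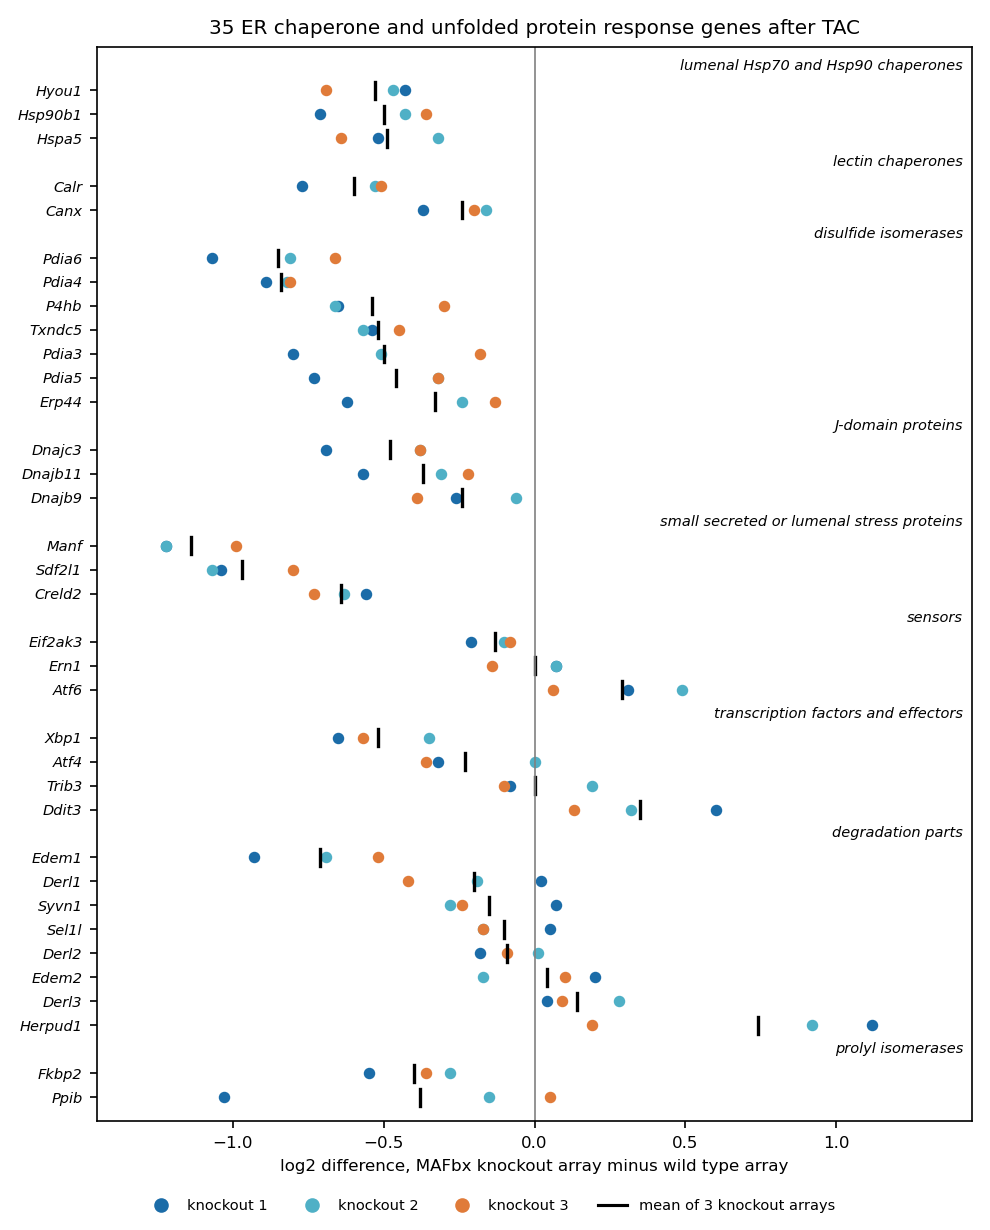
Difference of each knockout array from the wild type array (log2) for the 35 members, grouped by role; points are knockout 1, 2 and 3 and the black bar is their mean. All points of the 5 folding roles at the top lie left of 0, between -1.22 and -0.06, and the points of Herpud1 lie right of it, from 0.19 to 1.12.

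Of the 3 small stress proteins, Manf and Sdf2l1 had the lowest log2 fold changes of the 35 members. Manf, a secreted factor induced by ER stress, read 6.76, 6.76 and 6.99 in the knockout hearts and 7.98 in the wild type heart. The knockout mean of 6.84 ± 0.13 (SD, n = 3) was 2.21-fold lower, a log2 fold change of -1.14 with SE 0.19 (limma adjusted p = 0.311). Sdf2l1, a lumenal partner of J-domain proteins, read 6.40, 6.37 and 6.64 in knockout and 7.44 in wild type, a log2 fold change of -0.97 with SE 0.19 (limma adjusted p = 0.390). Creld2, a secreted protein induced by ER stress, with an ER stress element in its promoter, read 7.49, 7.42 and 7.32 in knockout and 8.05 in wild type (-0.64). For all 3 genes the knockout arrays lay within 0.27 of each other and at least 0.56 below the 1 wild type array. Over all genes tested, 24.2% had every knockout array below wild type.

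All 7 disulfide isomerase genes lay below wild type on every knockout array, and 4 of them had an unadjusted limma p under 0.05. Over all genes tested, 24.2% lay below on every knockout array and 3.87% were lower at that level. Pdia4 read 8.10, 8.17 and 8.18 in knockout against 8.99 in wild type. Its knockout arrays differed from each other by 0.08, and its log2 fold change was -0.84 (SE 0.17, limma adjusted p = 0.391). A second, dim probe set of Pdia4 gave 5.04, 4.61 and 4.82 in knockout and 5.06 in wild type, a difference of -0.24. Pdia6 read 8.60, 8.86 and 9.01 against 9.67, a log2 fold change of -0.85 with SE 0.21 (limma adjusted p = 0.544).

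P4hb, the classical protein disulfide isomerase and also a subunit of the enzyme that hydroxylates collagen prolines, read 9.93, 9.92 and 10.28 in knockout and 10.58 in wild type (-0.54). Txndc5, a thioredoxin-domain isomerase, read 8.46, 8.43 and 8.55 in knockout, which is 0.54, 0.57 and 0.45 below its wild type array (-0.52). P4hb and Txndc5 thus lay below wild type on every knockout array, as did 24.2% of all genes. Pdia3, which works with the lectin chaperones on glycoproteins, read 10.06, 10.35 and 10.68 against 10.86, so knockout 3 lay only 0.18 below wild type while knockout 1 lay 0.80 below. Its log2 fold change was -0.50 (unadjusted p = 0.0912, limma adjusted p = 0.935). Pdia5 stood at -0.46 and Erp44, which retains client proteins in the early secretory pathway, at -0.33 (limma adjusted p = 0.924 and 0.946).

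The 3 lumenal Hsp70 and Hsp90 chaperones differed by similar amounts, with all 3 at an unadjusted limma p under 0.05. Of all genes tested, 3.87% were lower in knockout at that level. Hspa5 encodes BiP, the Hsp70 of the ER that binds unfolded chains and holds the sensors inactive. It read 10.41, 10.61 and 10.29 in knockout and 10.93 in wild type, a 1.41-fold difference and a log2 fold change of -0.49 with SE 0.20 (limma adjusted p = 0.845). Hsp90b1, the Hsp90 of the ER, read 10.32, 10.60 and 10.67 against 11.03 (-0.50). Hyou1, the nucleotide exchange partner of BiP, read 7.94, 7.90 and 7.68 against 8.37 (-0.53).

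In both Hspa5 and Hyou1 the lowest array was knockout 3, and in Hsp90b1 it was knockout 1. The lectin chaperones, which bind newly made glycoproteins, differed in size. Calr, calreticulin, read 9.71, 9.95 and 9.97 in knockout and 10.48 in wild type (-0.60, limma adjusted p = 0.682). Canx, calnexin, read 10.69, 10.90 and 10.86 against 11.06 (-0.24, limma adjusted p = 0.954).

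The 3 J-domain genes, whose products stimulate BiP, lay below wild type on every knockout array as well. Dnajc3 read 9.04, 9.35 and 9.35 in knockout and 9.73 in wild type (-0.48, limma adjusted p = 0.881), and its second probe set gave identical values. Dnajb11 stood at -0.37. Dnajb9 stood at -0.24, with knockout 2 only 0.06 below the wild type array. Over the 5 folding roles together, 18 of 18 members lay below wild type on every knockout array and 12 had an unadjusted p under 0.05. The shares over all genes tested were 24.2% below on every knockout array and 3.87% lower at that level. Those roles were summed after their values were seen, so the count is a description.

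**Figure D3:**
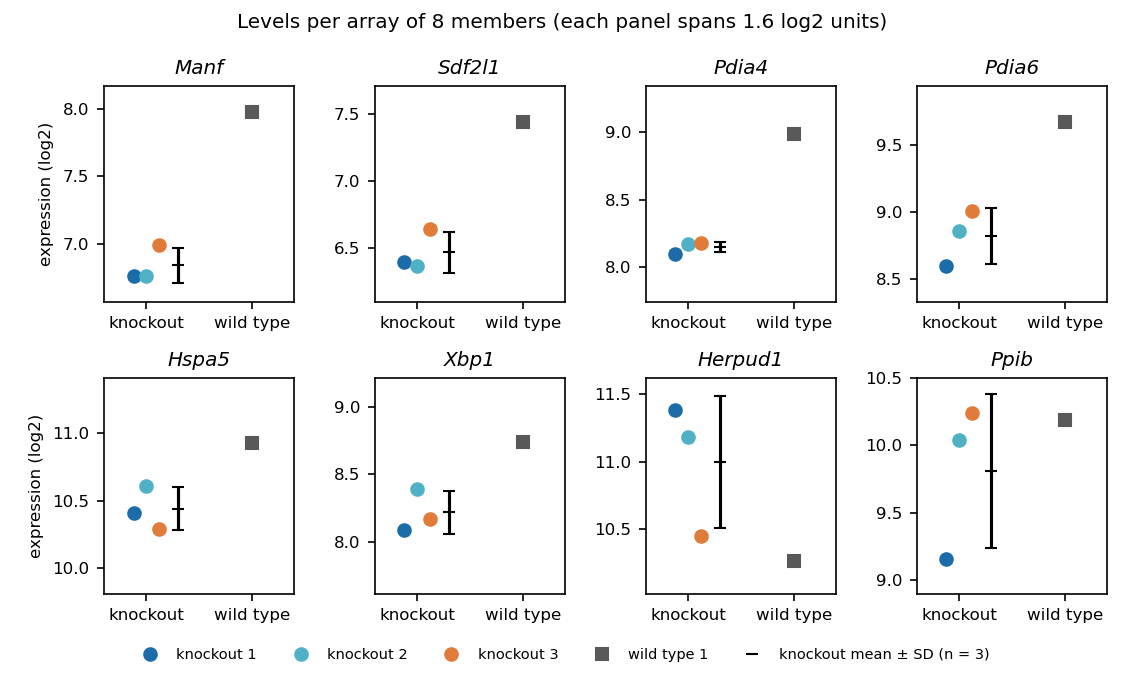
Level per array (log2) of 8 members, with knockout arrays and their mean ± SD (n = 3) left of the single wild type array; every panel spans 1.6 log2 units. In Manf, Sdf2l1, Pdia4, Pdia6, Hspa5 and Xbp1 all knockout points lie below wild type, in Herpud1 all lie above it, and in Ppib knockout 3 lies above and knockouts 1 and 2 below.

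Of the 3 sensor transcripts 0 had an unadjusted limma p under 0.05, where 3.87% of all genes were lower and 1.72% higher. Ern1, the kinase and nuclease that splices Xbp1 mRNA, read 6.79, 6.79 and 6.58 in knockout and 6.72 in wild type, a log2 fold change of 0.00. Eif2ak3, the kinase that phosphorylates eIF2-alpha, read 6.70, 6.81 and 6.83 against 6.91 (-0.13, limma adjusted p = 0.990). Atf6 read 9.23, 9.41 and 8.98 against 8.92 (0.29, limma adjusted p = 0.954), above wild type on every knockout array but by only 0.06 in knockout 3. The arrays measure mRNA and show neither cleavage of ATF6 nor phosphorylation of the kinases.

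Among the 4 transcription factors and effectors, 1 was lower at an unadjusted p under 0.05, as were 3.87% of all genes. Xbp1, itself a target of ATF6, read 8.09, 8.39 and 8.17 in knockout and 8.74 in wild type. Its log2 fold change was -0.52 with SE 0.19 (limma adjusted p = 0.807). Every knockout array lay below wild type, as for 24.2% of all genes. The spliced form was not measured separately. Atf4, the factor made when eIF2-alpha is phosphorylated, read 7.59, 7.91 and 7.55 against 7.91 (-0.23), with knockout 2 level with wild type. Ddit3, which encodes CHOP, read 7.40, 7.12 and 6.93 against 6.80 (0.35, limma adjusted p = 0.935), higher on every knockout array. Trib3, a pseudokinase induced by ATF4 and CHOP, read 6.41, 6.68 and 6.39 against 6.49, a log2 fold change of 0.00.

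Parts of the degradation route, which sends misfolded protein back to the cytosol, differed in sign among themselves, with 5 of 8 knockout means below wild type. Over all genes tested, 8066 of 16708 knockout means lay below it. Edem1 had the 1 unadjusted p under 0.05 of the 8, a level at which 3.87% of all genes were lower. This mannosidase-like protein marks glycoproteins for disposal. Its transcript read 6.89, 7.13 and 7.30 in knockout and 7.82 in wild type, a log2 fold change of -0.71 with SE 0.21 (limma adjusted p = 0.627). It was the 1 member of the 8 (12.5%) that lay below wild type on every knockout array, where 24.2% of all genes did. Its relative Edem2 read 6.75, 6.38 and 6.65 against 6.55 (0.04). The ubiquitin ligase gene Syvn1 stood at -0.15 and its adaptor Sel1l at -0.10, and on both knockout 1 read above wild type. The derlin genes, which encode membrane proteins of the same route, gave -0.20 for Derl1, -0.09 for Derl2 and 0.14 for Derl3.

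Herpud1, a membrane protein that assembles with the Syvn1 ligase, was the highest of the 35 members. It read 11.38, 11.18 and 10.45 in knockout and 10.26 in wild type. The knockout mean of 11.00 ± 0.49 (SD, n = 3) was 1.67-fold higher, a log2 fold change of 0.74 with SE 0.34 (unadjusted p = 0.0677, limma adjusted p = 0.905). Knockouts 1 and 2, the arrays with high Xist, read 1.12 and 0.92 above wild type, and knockout 3 read 0.19 above it. Without knockout 3 Herpud1 was the 1 member higher at an unadjusted p under 0.05. Whether the difference goes with genotype or with the sex-linked pattern cannot be told apart in knockouts 1 and 2.

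The prolyl isomerases catalyse the turning of proline bonds, and one of them had the same order of arrays as the collagens. Fkbp2 read 9.67, 9.94 and 9.86 in knockout and 10.22 in wild type (-0.40, limma adjusted p = 0.908). Ppib, cyclophilin B, which acts on collagen chains in the ER, read 9.16, 10.04 and 10.24 against 10.19, the widest knockout range of any member (1.08). Col1a1 read 10.10, 10.66 and 12.11 in knockout and 11.58 in wild type, and Col3a1 9.03, 9.74 and 11.28 against 10.58. All 3 genes thus had knockout 1 lowest, knockout 2 next and knockout 3 highest, with wild type between knockouts 2 and 3. Knockout 3 exceeded wild type by 0.05 in Ppib, 0.53 in Col1a1 and 0.70 in Col3a1. P4hb, which also acts on collagen, had another order, with 9.93, 9.92 and 10.28 in knockout against 10.58. With 4 arrays no correlation is given.

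Within the knockout group, the ER genes differed by array. Knockout 1 was the single lowest knockout array for 17 of the 35 members, knockout 3 for 11 and knockout 2 for 5, with ties in the others. Over all 16708 genes tested, knockout 1 was the single lowest for 5091, knockout 3 for 5921 and knockout 2 for 5273. In knockout 3, the array that shares the sex-linked pattern of wild type, 29 members read below wild type and 6 above it. Those above were Herpud1, Ddit3, Edem2, Derl3, Atf6 and Ppib. The median difference of knockout 3 from wild type was -0.32 over the members and 0 over all genes tested. The differences of knockout 3 from wild type were -0.99 for Manf, -0.81 for Pdia4, -0.80 for Sdf2l1, -0.73 for Creld2, -0.69 for Hyou1 and -0.64 for Hspa5, next to -0.13 for Erp44 and -0.18 for Pdia3.

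Members with an ER stress element in the promoter and members without one overlapped in their values. Of the 9 with it, 7 lay below wild type on every knockout array and the median log2 fold change was -0.49. Of the 22 members with a promoter but no match, 13 lay below and the median was -0.35. Manf, Hyou1, Derl1 and Atf6 had no matched promoter and are in neither group. They stood at -1.14, -0.53, -0.20 and 0.29. Canx, Syvn1 and Derl3 hold the element and stood at -0.24, -0.15 and 0.14, whereas Sdf2l1 and Pdia4, with no match in the window, stood at -0.97 and -0.84.

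Beyond the members, other genes of ER entry and glycosylation also read lower. For comparison, 24.2% of all genes lay below wild type on every knockout array, and 3.87% were lower at an unadjusted limma p under 0.05. Among 17 genes of the translocon and signal peptidase, which admit new chains and remove their signal peptides, 12 lay below wild type on every knockout array, 5 had an unadjusted p under 0.05 and the median was -0.29. Spcs3, a signal peptidase subunit, read 8.65, 8.92 and 9.06 in knockout against 10.05 in wild type (-1.17, limma adjusted p = 0.343). Sec61a1, a subunit of the channel, stood at -0.67 and Ssr1, a translocon-associated subunit, at -0.57. Spcs3, Sec61a1 and Ssr1 had the smallest p of this list, whose log2 fold changes reached up to 0.10. Among 17 glycosylation and lectin genes 13 lay below, 4 had an unadjusted p under 0.05 and the median was -0.20. The genes of smallest p in this list, Stt3a, Ostc and Rpn1 of the oligosaccharyltransferase, stood at -0.77, -0.68 and -0.49. The log2 fold changes of the list reached up to -0.07. Without knockout 2 the translocon count of 5 became 3 and the glycosylation count of 4 became 0, and without knockout 1 the glycosylation count became 2.

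Fewer genes of 2 further lists had an unadjusted p under 0.05. The shares over all genes were again 24.2% below wild type on every knockout array and 3.87% lower at that level. Of 13 further oxidoreductases 9 lay below wild type on every knockout array and 1 had an unadjusted p under 0.05 (median -0.22). Qsox1, a secreted sulfhydryl oxidase, stood at -0.56, Txndc11 at -0.44 and the oxidase gene Ero1b at -0.34. Of 16 further degradation genes 8 lay below and 0 had an unadjusted p under 0.05 (median -0.12), with Herpud2 at -0.27, Ubxn4 at -0.24 and the ubiquitin-conjugating enzyme gene Ube2j1 at -0.21. Without knockout 2 the 1 oxidoreductase became 0. No gene of any of these lists passed the adjusted limma threshold.

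The integrated stress response list, which holds targets of ATF4, was mixed. Of its 23 genes 9 (39.1%) lay below and 5 above wild type on every knockout array, where 24.2% of all genes did each. At an unadjusted limma p under 0.05, 3 were lower and 1 higher, against 3.87% and 1.72% of all genes. The median was -0.10. Vldlr, a lipoprotein receptor, stood at 0.82, and the amino acid transporter gene Slc7a5 and the serine synthesis gene Psat1 at -0.78 and -0.76. Of 17 further regulators 4 (23.5%) lay below, near the share over all genes, and 2 above. In this list 2 genes (11.8%) were lower at an unadjusted p under 0.05 (median -0.09). Creb3l1, an ATF6-like membrane factor, stood at -0.79, Serp1, a small translocon-associated stress protein, at -0.97, and Cdnf, the paralogue of Manf, at 0.60, with 7.44, 7.43 and 6.76 in knockout and 6.61 in wild type. Without knockout 2 the 3 integrated stress response genes lower at that level became 1, and the 2 regulators became 1.

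**Figure D4:**
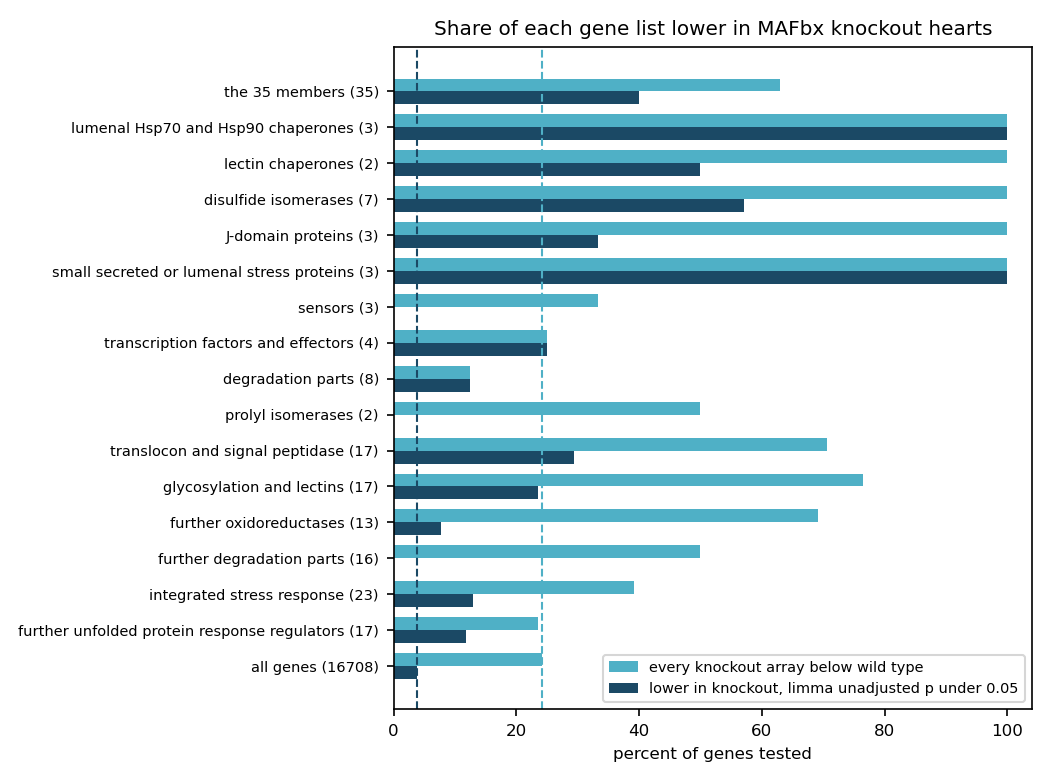
Share of the genes tested in each list (number in brackets) that lay below wild type on every knockout array, and share lower in knockout at an unadjusted limma p under 0.05; dashed lines mark both shares over all 16708 genes, 24.2% and 3.87%. The 5 folding roles reach 100% on the first measure, degradation parts 12.5%, and translocon and glycosylation genes 70.6% and 76.5%.

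Markers of other cell types also varied between these arrays. In whole heart tissue, fewer cells of a type and less RNA per cell cannot be told apart. The counts below stand beside 24.2% of all genes below and 24.2% above wild type on every knockout array. Of 8 macrophage markers 7 lay below wild type on every knockout array, with a summed level (linear scale) of 1723 to 3198 in knockout and 4162 in wild type, Lyz2 at -0.76 and Cd68 at -1.30. Of 4 smooth muscle markers 3 lay below, with sums of 1469 to 2156 against 2631, and Acta2 stood at -0.76 and Tagln at -0.43. Fibroblast markers summed to 8388, 11454 and 19902 in knockouts 1, 2 and 3 and 13327 in wild type, with 1 of 8 below and 2 above, Dcn at 0.28 and Col1a1 at -0.62.

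Cardiomyocyte markers, which identify the tissue as heart, summed to 58385 to 63936 in knockout and 57277 in wild type. On every knockout array 0 of 8 lay below wild type and 4 above it, where 24.2% of all genes did each. Mb stood at 0.13 and Tnnt2 at -0.03. Endothelial markers summed to 3206 to 4212 against 3099, with 0 of 7 below and 3 above, Cdh5 at 0.20 and Emcn at 0.11. Plasma and B cell markers, of which 8 were measured, summed to 297 to 336 against 355. Their genes Cd79a, Ms4a1 and Jchain lay under the filter level of 4.10, with 1 of the 5 tested below wild type on every knockout array, Sdc1 at -0.52 and Mzb1 at 0.04. The 1 erythroid marker measured, Alas2, stood at 0.02. The part of these cell types in the lower ER values was not tested.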

How the data were processed

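Biotin-labelled cRNA from total RNA of 4 mouse hearts was hybridised to Affymetrix Mouse Gene ST arrays, per the labels' protocols and design text. The deposited values are log2 expression values per probe set, which the authors made with Affymetrix Expression Console and RMA, per the submitters' processing notes. The sources used here give no versions. RMA equalises the distributions of the arrays, which removes a shift that most genes share, and it compresses differences between dim genes.

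Of 35556 probe sets, 21789 carry 1 gene symbol in the platform annotation, 1621 several and 12146 none. Genes were named from the first kind, taking the probe set of highest 4-array mean for the 999 genes with several. Genes whose probe set averaged under 4.10, the 25th percentile over all probe sets, were not tested. The test of knockout against wild type was limma 3.58.1 (lmFit, eBayes, two-sided; R 4.3.3), with Benjamini-Hochberg adjustment over 16708 genes and a threshold of 0.05. The spread of the wild type group, which has 1 array, is taken to equal that of the knockout group (residual degrees of freedom 2, prior 5.05). For 1 array against 3 the smallest p of an exact permutation test is 0.25, and so few arrays limit the precision of all values. The fit was checked on simulated data of 3 arrays against 1. There the adjusted threshold recovered 0% of 1.5-fold, 0.9% of 2-fold, 32.1% of 3-fold and 48.9% of 4-fold changes.

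Named are all 35 members, Fbxo32, Hmox1, Xist, Eif2s3y, the 3 genes of smallest p in each list of other ER genes and the 2 of highest level in each marker list. Col3a1, and Cd79a, Ms4a1 and Jchain as dim markers, were named after their values were seen. Members and lists were chosen with earlier results of these data known, so they are no independent evidence of direction. The plan to read protein ends was not carried out. Alternatives were other filters, probe set rules, normalizations and variance models, leaving out each knockout array, knockout 3 against wild type alone, and Xist as a covariate.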

Additional observations from a re-analysis of the deposited data

How the results depend on the processing

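The number of members past the adjusted threshold was 0 under every alternative run with limma, with a smallest member adjusted p between 0.191 (robust variance model) and 0.996 (without knockout 1), while the genes called in all ranged from 0 to 9. The count of 14 members lower at an unadjusted p under 0.05 ranged from 8 to 12 when 1 knockout array was left out, where 2.06% to 6.08% of all genes were lower at that level. It was 7 with the level of Xist (high or low) as a covariate, where 2.50% of all genes were lower at that level, and 10 after renewed quantile normalization, where 3.56% were. The count of members higher at that level was 0 without knockout 1 or 2 and 1 without knockout 3. Leaving out 1 knockout array, the members' median log2 fold change ran from -0.45 to -0.30, and it was -0.32 in knockout 3 against wild type alone and with the covariate, which rests on the same pair. Ppib turned to 0.05 in knockout 3 alone and with the covariate, and Edem2 ran from -0.03 without knockout 1 to 0.15 without knockout 2. The cause was not tested. In the lists of other ER genes, leaving out 1 array moved the count lower at an unadjusted p under 0.05 between 3 and 5 for the translocon, 0 and 4 for glycosylation, 0 and 1 for oxidoreductases, 1 and 2 for the integrated stress response and 1 and 3 for further regulators. A filter at the 25th percentile over genes was added after seeing the data and gave 14 again. No paired analysis was possible because the groups share only replicate number 1.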
